A study of Rattus norvegicus with 4 samples.

Results

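Solute carriers are membrane proteins that move sugars, amino acids, ions, nucleosides, metals and other small molecules across membranes, and their genes carry symbols that begin with Slc. The set described here holds every gene with 1 such symbol in the array platform's annotation, without the mitochondrial Slc25a carriers and without Slc27a1, Slc2a1, Slc2a4 and Slc16a3. One probe set stood for each gene, the one with the highest mean signal over the arrays, and it was kept when at least 2 arrays exceeded a signal of 20.8. Of 206 such genes 162 were kept, out of 9011 genes tested in all. Just inside that limit were Slc7a2 and Slc28a3, whose second highest signals were 21.0 and 21.2, and just outside were Slc5a7 and Slc5a1 with 20.8 and 20.5. The arrays measured RNA from the visceral fat of male rats of the outbred Wistar strain, all 130 days old. According to the titles 2 samples were controls and 2 were obese. The labels name no diet, drug or allele that made the rats obese, and they leave unsaid whether animals were pooled, so each p-value reflects how far these samples lay apart, which may be technical variation alone.

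In white fat, carriers supply adipocytes with glucose and amino acids, release lactate through proton-coupled monocarboxylate carriers, take up catecholamines and set sodium, chloride and bicarbonate gradients. The sodium pump provides the gradient on which many of them run. Most families lie in the plasma membrane, but the set is wider than that. The Slc35 family moves nucleotide sugars into the Golgi apparatus and endoplasmic reticulum, several Slc30 zinc carriers fill vesicles, Slc37a4 carries glucose 6-phosphate into the endoplasmic reticulum and Slc15a3 sits in lysosomes. Slc4a1ap and Slc7a6os share the symbol's start but are not carriers. The genes were grouped by main substrate into 9 for glucose and other sugars, 29 for amino acids, 27 for ions, 3 for monocarboxylates, 5 for nucleosides, 25 for metals and 64 for other cargo.

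With limma, 0 of the 162 genes passed at an adjusted p of 0.05, as did 0 of the 12929 probe sets tested in the whole table, a share of 0%. At an unadjusted limma p under 0.05 there were 15 of the 162 genes, beside 8.59% of all tested genes and 8.3% of all probe sets. Of these 15 genes 12 were lower in obese tissue and 3 higher, beside 5.26% and 3.33% of all genes. Among the 12 was Slc46a1, which passed the signal filter through the controls alone, so its direction was built in. A gene is called separated here when its control and obese signals did not overlap. Separated downwards, with both obese signals the lower, were 49 genes (30.2%), beside 24% of all tested genes. Separated upwards were 16 genes (9.88%), beside 16.4% of all. When each array was centred on its median, 38 genes were separated downwards and 26 upwards, beside 16.5% and 23% of all genes. The median log2 difference, obese minus control, was -0.08 over the solute carriers and -0.04 over all tested genes, and it was -0.00042 and 0.04 after median centring. Only 2 genes were both separated and at least 2-fold apart as deposited, Slc7a10 higher and Slc4a1 lower in obese tissue, a class that held 1.15% of all tested genes, 0.411% higher and 0.744% lower. For 148 of the 162 genes the log2 difference was smaller than 0.5 in size.

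**Figure D1:**
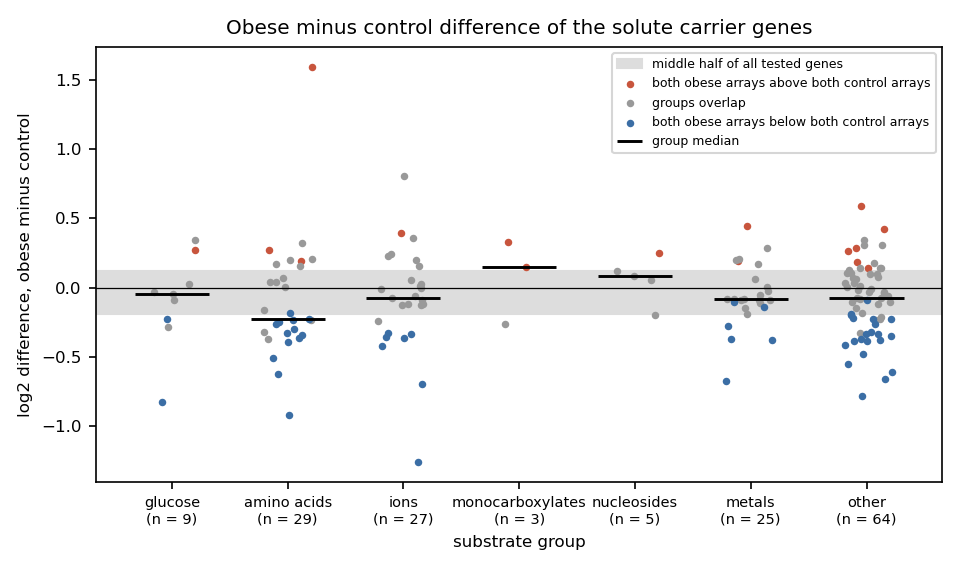
Each point is 1 of the 162 solute carrier genes, placed by substrate group on the x axis and by its log2 difference, obese minus control, on the y axis. Red points are separated upwards, blue ones downwards and grey ones overlap, black bars are group medians and the grey band runs from the lower to the upper quartile of all 9011 tested genes. Slc7a10 stands alone at 1.59 among the amino acid carriers and Slc4a1 at -1.26 among the ion carriers.

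Some arrays stood apart in ways that touch these counts. The deposited signals had been scaled to nearly equal trimmed means, but the median signal was 75 on obese replicate 2 and 82.2 to 83.1 on the other arrays. Obese replicate 2 was the lowest of the 4 arrays for 35.8% of the solute carriers and for 36.9% of all genes, and control replicate 2 was the highest for 42.6% of the solute carriers and 29.3% of all genes. Pancreas markers, of which 9 of 10 were measured, summed to 357.9 and 966 in controls and 2630.5 and 263 in obese samples. On obese replicate 1 amylase Amy2a3 was at 531.8 against 1.0 to 3.3 elsewhere. The carboxypeptidase Cpa1 and the elastase Cela1 were instead highest on control replicate 2, at 622.5 and 207.8 against 73.4 to 197 and 21.4 to 166.2 on the other arrays. Obese replicate 1 also carried epithelial markers, with E-cadherin Cdh1 at 74.0 against 2.1 to 2.4. The solute carriers that were at least 1.5-fold higher on obese replicate 1 than on any other array were Slc34a1 and Slco2a1, 1.23% of the set beside 1.39% of all genes. Control replicate 1 had the B cell gene Cd79b at 99.3 against 8.7 to 17.5. Adipocyte markers were present on all arrays, and 8 of 11 listed were measured, with summed signals of 12800.1 and 12683.8 in controls and 12699.7 and 15160.6 in obese samples. The part of these markers in the counts was not tested.

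**Figure D2:**
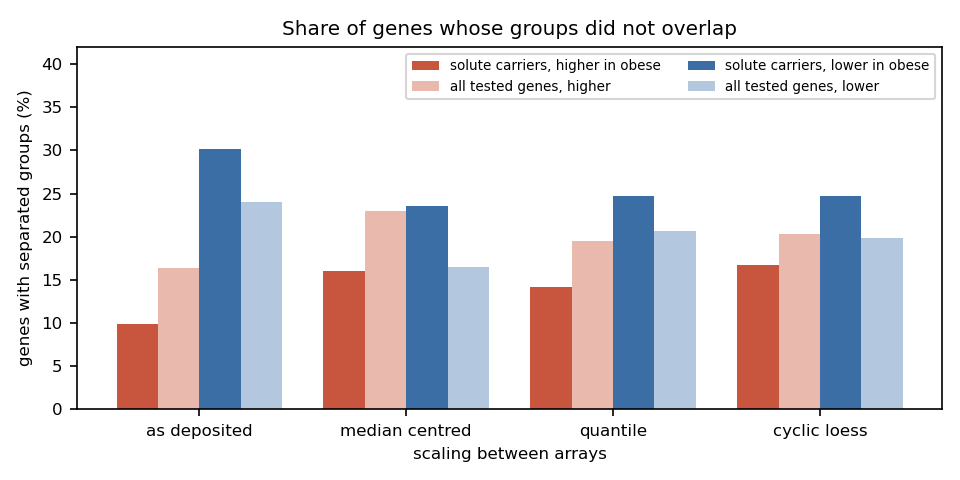
Bars give the percentage of genes whose 2 obese arrays lay above (red) or below (blue) both control arrays, for the 162 solute carriers (dark) and all tested genes (light), under 4 scalings on the x axis. Among solute carriers the lower share was the larger under each scaling, 30.2% as deposited and 23.5% to 24.7% under the other 3, while for all genes the upward share was the larger after median centring and cyclic loess.

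The sequence upstream of 3 genes is shown, chosen after their values were seen. Slc7a10 had the largest positive test statistic of the set and Slc22a3 the most negative one among genes with an upstream sequence. Slc16a1 had the largest positive one among monocarboxylate carriers. Slc4a1 was not matched. The sequences are the 250 bases before the RefSeq gene start in assembly GRCr8, 5′ to 3′ on the gene's strand. Capitals mark matches, on either strand, to any of 5 motifs. CACGTG is the E-box bound by Myc and Mitf-type factors. AGATAA is a site for GATA factors. TGATGNAAT is the composite site at which Atf4 pairs with C/EBP proteins. TGCGCNC is the core of the metal response element bound by Mtf1. TGCACNC is the other form of that core.
Slc7a10, chr1:96965872-96966121, plus strand: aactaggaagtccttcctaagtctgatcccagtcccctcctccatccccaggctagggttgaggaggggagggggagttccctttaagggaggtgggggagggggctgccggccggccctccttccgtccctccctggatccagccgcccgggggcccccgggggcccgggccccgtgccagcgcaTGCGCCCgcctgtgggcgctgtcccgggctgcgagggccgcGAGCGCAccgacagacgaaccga
Slc22a3, chr1:50782968-50783217, plus strand: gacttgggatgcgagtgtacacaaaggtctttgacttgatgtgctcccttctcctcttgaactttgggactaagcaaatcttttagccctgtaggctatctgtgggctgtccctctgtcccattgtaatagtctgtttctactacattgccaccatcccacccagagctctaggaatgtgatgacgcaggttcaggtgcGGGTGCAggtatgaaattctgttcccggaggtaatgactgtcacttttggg
Slc16a1, chr2:194812410-194812659, plus strand: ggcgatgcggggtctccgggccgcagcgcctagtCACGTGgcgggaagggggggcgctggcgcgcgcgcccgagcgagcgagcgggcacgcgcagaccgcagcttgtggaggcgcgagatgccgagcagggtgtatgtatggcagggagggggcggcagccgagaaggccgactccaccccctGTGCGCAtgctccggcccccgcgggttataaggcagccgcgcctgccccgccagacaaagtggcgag
Of the 162 genes 135 had an upstream sequence. CACGTG was present upstream of 17 of them (12.6%), against 5.79% of all 27457 upstream sequences, and the matches included Slc16a1 and Slc7a5. TGCGCNC was present for 27 (20%, against 12.7% of all), TGCACNC for 17 (12.6% against 10.2%), AGATAA for 6 (4.44% against 10%) and TGATGNAAT for 1, Slc35a2 (0.741% against 0.929%). These motifs do not overlap in the 3 sequences shown. A match is only a match of letters. The 27457 sequences include genes that were not tested here, whereas the 135 passed the signal filter. Shares over the 9011 tested genes were not computed.

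Amino acid carriers gave the largest difference of the set. Slc7a10 encodes Asc-1, a carrier of small neutral amino acids known as a surface marker of white adipocytes. Its signal was 98.1 and 240.8 in the control samples and 357.0 and 603.3 in the obese samples. Both obese values were above both control values, although the controls themselves differed more than the upper control differed from the lower obese sample. The means were 169 ± 101 (SD, n = 2) and 480.1 ± 174, and the log2 difference was 1.59 ± 0.46 (SE), or 3.02-fold, with a limma adjusted p of 0.511. Leaving out control replicate 1 gave 0.95, leaving out control replicate 2 gave 2.24, and it stayed between 1.58 and 1.67 under the other scalings. Slc38a1, a system A carrier of glutamine and other small neutral amino acids, had signals of 69.6 and 80.5 in controls and 48.6 on both obese arrays, a log2 difference of -0.62 ± 0.19 (limma adjusted p = 0.522). Its second probe set was separated in the same direction, at -0.87.

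Across the 29 amino acid carriers 13 were separated downwards (44.8%) and 3 upwards (10.3%), against 24% and 16.4% of all genes. The group median was -0.22, and 0 genes passed. Slc1a5, the glutamine carrier ASCT2, had signals of 713.5 and 803.4 in controls and 795.9 and 1130.9 in obese samples, so the groups overlapped (0.33 ± 0.20). Without obese replicate 2 that difference was 0.07. Slc3a2 is the heavy chain 4F2hc that brings several Slc7 light chains to the surface, and its signals of 612.8 and 564.8 against 602.8 and 711.9 overlapped as well (0.16 ± 0.14, and 0.035 without obese replicate 2). Besides Slc7a10, the light chains it partners gave -0.34 for Slc7a5 (LAT1), -0.23 for Slc7a6, -0.22 for Slc7a7 and -0.16 for Slc7a8, and all but Slc7a8 were separated. Slc7a5 was at -0.087 without obese replicate 1, Slc7a6 at -0.085 without control replicate 1, and Slc7a8 turned to 0.033 without obese replicate 2. Of the 11 Slc7 genes, 6 were separated downwards (54.5%, against 24% of all genes) and Slc7a10 was the only one separated upwards. Slc7a9, a light chain of the kidney-type cystine carrier, was at 85.8 and 95.6 in controls and 67.3 and 34.0 in obese samples (-0.92 ± 0.34), which was -1.41 without obese replicate 1 and -0.43 without obese replicate 2. The remaining genes of this group ranged from -0.51 for Slc38a6 to 0.27 for Slc38a2, an amino acid starvation-inducible carrier whose obese values of 286.0 and 252.9 lay above control values of 208.9 and 237.6. The taurine carrier Slc6a6 was at -0.36, at -0.18 without control replicate 2, and at -0.85 with its second probe set.

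The response to amino acid shortage runs through the transcription factor Atf4, which acts on several carrier genes. Of 18 listed genes of that response 13 were tested, and 10 were higher and 3 lower in obese tissue, with 5 separated upwards, 1 downwards and 0 passing limma, where 16.4% of all tested genes were separated upwards and 24% downwards. Of all 9011 genes 3908 were higher in obese tissue. Atf4 itself had signals of 773.4 and 765.0 in controls and 856.3 and 1182.6 in obese samples (0.39 ± 0.18), Cebpb a difference of 0.58 ± 0.13 and Atf3 of -1.04 ± 0.34. The 9 genes of glutathione synthesis and use, which draws on imported cystine, had a median of 0.07, with Gsr at 0.40, Ggt5 at -0.54 and Mgst1 at 0.17.

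**Figure D3:**
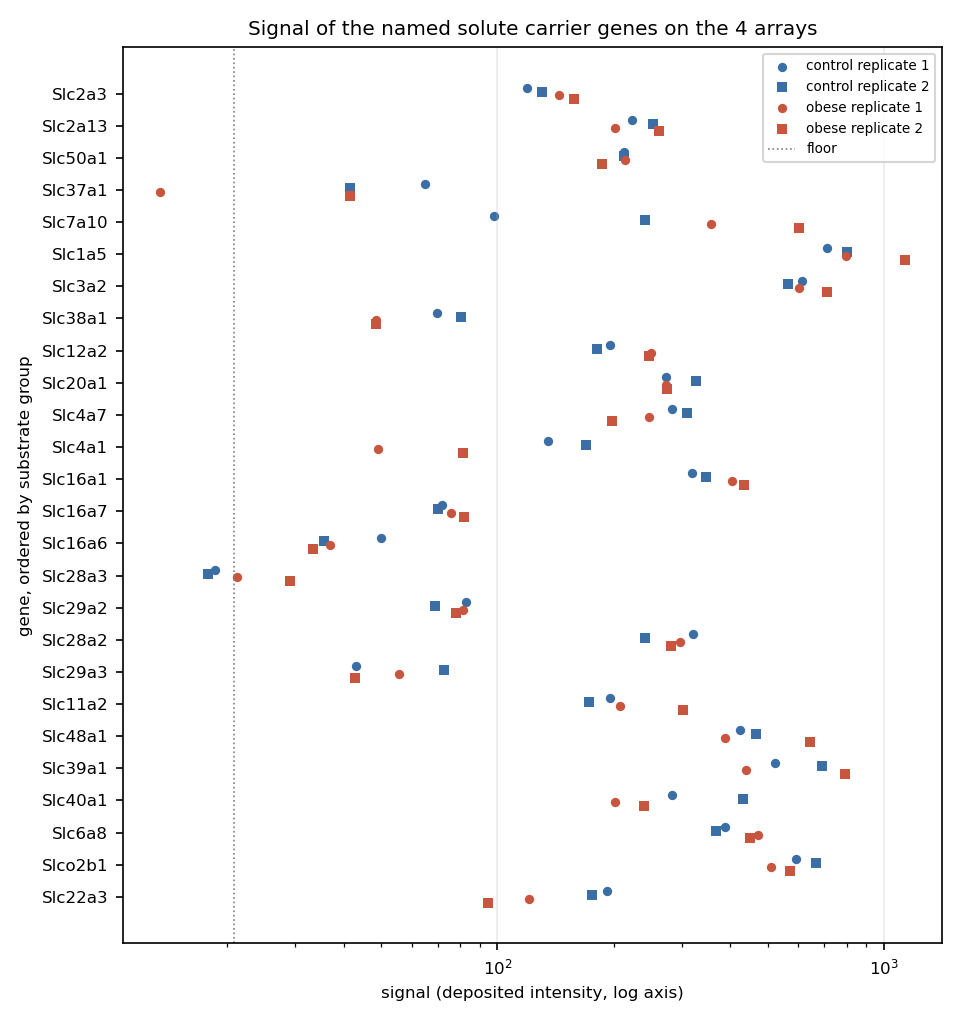
Points give the deposited signal (x axis, log scale) of each named solute carrier gene (y axis, grouped by substrate) on the 2 control (blue) and 2 obese (red) arrays, with the floor of 20.8 as a dotted line. The groups lie clear of each other for Slc7a10, Slc4a1, Slc22a3, Slc38a1, Slc12a2 and Slc16a1, and they overlap for Slc1a5, Slc39a1, Slc2a13 and Slc28a2.

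Among ion carriers the lowest value belonged to Slc4a1, band 3, the chloride-bicarbonate exchanger of red cells. Its signals were 134.8 and 169.7 in controls and 49.1 and 81.6 in obese samples, with no overlap. The means were 152 ± 24.7 (SD, n = 2) and 65.4 ± 23.0, a log2 difference of -1.26 ± 0.29 or 2.39-fold, and the limma adjusted p was 0.457. A second probe set gave -1.34, and the difference was -0.89 without obese replicate 1 and -1.62 without obese replicate 2. In bulk tissue fewer cells of a type and less RNA per cell cannot be told apart. Other red cell markers moved in part with it. Ahsp, the alpha-globin chaperone, was at 59.0 and 97.3 in controls and 23.0 and 42.3 in obese samples (-1.28 ± 0.38), Hba-a3 differed by -0.65 ± 0.19 and Alas2, which starts heme synthesis in red cell precursors, by -0.52 ± 0.19. Hbb did not move with them, with 3802.6 and 4675.0 in controls and 3920.1 and 5022.9 in obese samples (0.07 ± 0.21). Of 15 listed markers 6 were measured and 5 tested, Slc4a1 among them, and 4 were separated downwards, against 24% of all tested genes. The summed signal of the 6, which Hbb dominates, was 5463.6 and 6931.4 in controls and 5224.0 and 6209.0 in obese samples, and Rhag exceeded the floor on 1 array only, at 21.0. The part of red cell content in the Slc4a1 difference was not tested.

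**Figure D4:**
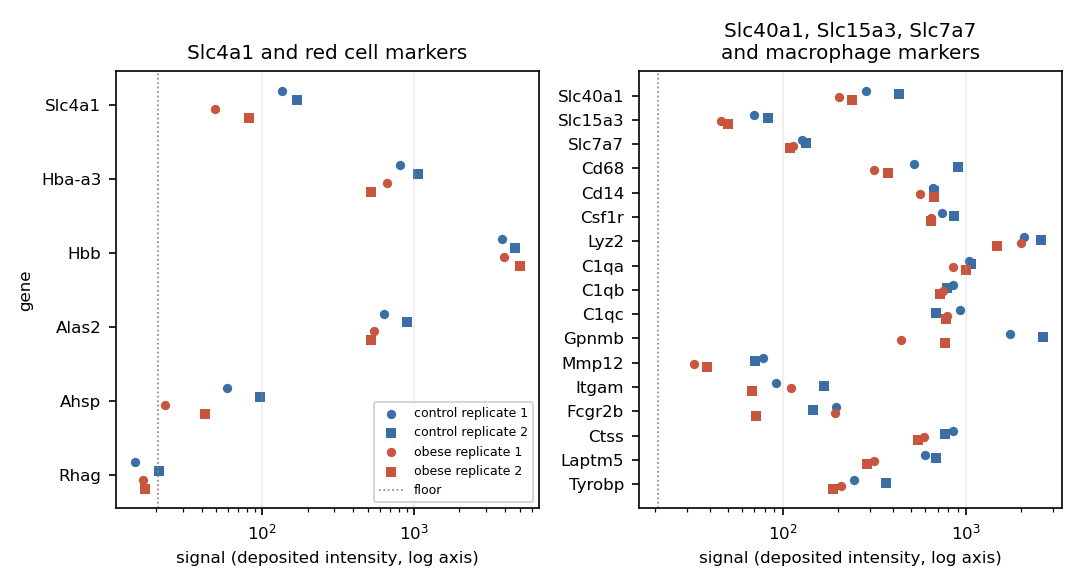
Both panels plot deposited signal (x axis, log scale) by gene (y axis) for the 2 control (blue) and 2 obese (red) arrays, with the floor as a dotted line. On the left, Slc4a1, Hba-a3, Alas2 and Ahsp have both obese points below both control points while Hbb overlaps. On the right, Slc40a1, Slc15a3 and Slc7a7 stand beside 14 macrophage markers, of which 10 are separated downwards.

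Slc12a2 had the largest positive test statistic among ion carriers. It encodes NKCC1, which brings sodium, potassium and chloride into cells, and its signals of 195.3 and 181.2 in controls and 248.9 and 246.5 in obese samples did not overlap. The log2 difference was 0.40 ± 0.13 (limma adjusted p = 0.532) and lay between 0.34 and 0.48 under every alternative scaling and without any single array. It was the only one of the 27 ion carriers separated upwards (3.7%, against 16.4% of all genes), and 7 were separated downwards (25.9%, against 24%). The group median was -0.08. Slc4a7, a sodium bicarbonate cotransporter, was at 282.1 and 309.7 in controls and 247.0 and 197.4 in obese samples (-0.42 ± 0.16). That difference was -0.26 without obese replicate 2, and the second probe set gave -0.53. The other bicarbonate carriers were Slc4a2 at -0.33, Slc4a3 at 0.16 and Slc4a4 at 0.23. Slc8a1, the sodium-calcium exchanger NCX1, had 152.3 and 242.3 against 125.2 and 112.1 (-0.70 ± 0.25), and -0.36 without control replicate 2. Slc20a1, a phosphate carrier, had 272.5 and 325.6 against 272.3 and 275.2, an overlap of the groups (-0.12 ± 0.14). Slc24a3, a potassium-dependent sodium-calcium exchanger, was at 182.5 and 111.8 in controls and 180.3 and 344.5 in obese samples, with overlap, so that its difference of 0.80 was 0.34 without obese replicate 2 and 1.27 without obese replicate 1.

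The sodium pump, on which many of these carriers depend, had 8 of 12 listed genes tested, 3 higher and 5 lower, with 0 passing limma. The measured genes of the list were beta subunits and Fxyd genes, and no catalytic alpha subunit was among them. The pump's beta subunit Atp1b1 was at 522.7 and 841.1 in controls and 294.5 and 253.7 in obese samples, a separated difference of -1.28 ± 0.24 (limma adjusted p = 0.402). The pump regulator Fxyd1, phospholemman, was at 0.42 ± 0.13, and the subunit Atp1b3 at -0.03.

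Monocarboxylate carriers numbered 3. Slc16a1 encodes MCT1, the proton-coupled carrier of lactate, pyruvate and ketone bodies. Its signals were 318.8 and 346.1 in controls and 403.5 and 434.1 in obese samples, with no overlap and little spread within either group. The log2 difference was 0.33 ± 0.13 (limma adjusted p = 0.578) and stayed between 0.27 and 0.41 under every scaling and without any single array. Slc16a7, MCT2, had 72.1 and 70.0 against 75.9 and 82.1 (0.15 ± 0.18), separated in the same direction. Slc16a6, another member of the family, had 49.9 and 35.6 against 37.0 and 33.3 (-0.26 ± 0.24, and -0.020 without control replicate 1), with overlap. The second probe set of Slc16a6 was separated downwards, at -0.57. MCT1 needs the chaperone basigin to reach the membrane, and Bsg was at 659.4 and 654.9 in controls and 821.0 and 753.6 in obese samples (0.26 ± 0.12). Embigin, Emb, the chaperone that MCT2 prefers, was at 116.7 and 161.0 against 70.2 and 63.6 (-1.04 ± 0.22). Both belong to a list of 12 carrier chaperones and carbonic anhydrases, of which 10 were tested, 6 higher and 4 lower, with Car3 at 0.07 and 0 passing limma.

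Glucose and other sugar carriers showed small differences. Slc2a3, the high-affinity glucose carrier GLUT3, had 119.4 and 130.2 in controls and 144.4 and 157.7 in obese samples, separated upwards by 0.28 ± 0.15 (limma adjusted p = 0.687), and 0.18 with its second probe set. Slc2a13, the proton-coupled myo-inositol carrier, overlapped between groups, with 222.6 and 251.9 against 201.1 and 261.7 (-0.05 ± 0.18). Slc50a1, a sugar carrier of the SWEET family, had 212.2 on both control arrays and 214.0 and 186.4 on the obese arrays (-0.09 ± 0.14). Slc37a1, a sugar phosphate exchanger, had 65.1 and 41.6 against 13.4 and 41.5, so that replicate 2 of both groups lay almost level and obese replicate 1 lay under the floor. Its difference of -0.82 ± 0.39 was -0.33 without obese replicate 1, -1.32 without obese replicate 2, -0.50 without control replicate 1 and -1.15 without control replicate 2. It was -0.13 when the floor was raised to the 40th percentile and -1.14 when it was lowered to the 10th. Of the 9 genes 1 was separated upwards (11.1%, against 16.4% of all genes) and 2 downwards (22.2%, against 24%), and the group median was -0.05. Slc2a8, Slc2a5, Slc45a3, Slc45a4 and Slc37a4 gave 0.34, -0.03, 0.03, -0.22 and -0.29.

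Nucleoside carriers had a median of 0.08. Of the 5 genes 1 was separated upwards (20%, against 16.4% of all genes) and 0 downwards (against 24%). Slc28a3, a concentrative sodium-coupled carrier, had 18.6 and 17.8 in controls, both under the floor, and 21.2 and 29.0 in obese samples, at least 1.19-fold higher there. Because it was kept through the obese samples alone, a difference in this direction was built in, and it was 0.027 on the log2 scale without obese replicate 2. The purine-preferring Slc28a2 had 319.7 and 240.7 against 296.4 and 280.4 (0.06 ± 0.17), with the obese values inside the control range. The equilibrative carriers Slc29a1, Slc29a2 and Slc29a3 gave 0.12, 0.08 ± 0.19 and -0.20 ± 0.31. For Slc29a2 the signals were 82.7 and 69.1 in controls and 81.7 and 78.3 in obese samples. For Slc29a3, which lies in lysosomes, they were 43.0 and 72.7 against 55.6 and 42.8, again overlapping. The second probe set of Slc29a3 was separated downwards, at -0.43.

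Metal carriers included the sole known iron exporter. Slc40a1, ferroportin, had signals of 283.4 and 432.3 in controls and 201.7 and 239.5 in obese samples, without overlap. Its log2 difference was -0.67 ± 0.23 (limma adjusted p = 0.552), and -0.37 and -0.39 with 2 further probe sets, whose groups overlapped. Without control replicate 2 it was -0.37. Slc11a2, the iron importer DMT1, had 195.9 and 172.7 against 207.5 and 302.3, separated upwards by 0.45 ± 0.21, but 0.17 without obese replicate 2, and its second probe set gave -0.06. Slc39a1, the zinc importer ZIP1, spread from 438.8 to 793.3 within the obese pair and from 522.7 to 690.4 within the controls (-0.03 ± 0.30). Slc48a1, a heme carrier, had 423.4 and 465.8 against 387.8 and 643.9 (0.17 ± 0.25), with overlap. All 25 metal carriers named by the rule were kept, with 2 separated upwards (8%, against 16.4% of all genes) and 6 downwards (24%, equal to the share of all genes), and the median was -0.08. The zinc exporters of the Slc30 family lay between -0.38 for Slc30a4 and 0.28 for Slc30a5. The 9 zinc importers of the Slc39 family lay between -0.27 for Slc39a10 and 0.01 for Slc39a11. Of these 8 were below 0, as were 5103 of all 9011 genes. The sign turned without a single array for Slc39a1, Slc39a3, Slc39a4, Slc39a8, Slc39a11 and Slc39a14.

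Among 17 listed genes of iron and metal handling 11 were tested, 3 higher and 8 lower, with 0 passing limma. Hmox1, heme oxygenase 1, which frees iron from heme, was at 314.8 and 907.6 in controls and 252.6 and 267.1 in obese samples (-1.04 ± 0.46), with control replicate 2 far above the rest. Metallothionein Mt2A, which binds zinc, was at 0.29 ± 0.13.

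Ferroportin, the lysosomal peptide and histidine carrier Slc15a3 and the cationic amino acid carrier Slc7a7 are known for their part in macrophages. No rule picked these genes, and each was separated downwards. The iron importer Slc11a2 and the heme carrier Slc48a1 lay higher instead, at 0.45 and at 0.17 with overlap. Slc15a3 had 69.3 and 83.3 in controls and 45.9 and 50.3 in obese samples (-0.66 ± 0.20, limma adjusted p = 0.522), and Slc7a7 had 127.7 and 133.2 against 113.5 and 110.1. Macrophage markers lay lower as well. All 14 tested of 18 listed were lower in obese tissue and 10 were separated, where 24% of all tested genes were separated downwards, with summed signals of 10625.1 and 12400.8 in controls and 7785.0 and 7641.9 in obese samples. Laptm5 was at -1.09, Lyz2 at -0.43 and C1qc at -0.03. Lymphocyte markers summed to 2022.6 and 1414.7 in controls and 1049.5 and 880.5 in obese samples. Of 11 tested, 11 were lower and 6 separated, where 24% of all tested genes were separated downwards. Cd4, which rat macrophages also carry, was at -0.96 and Cd8b at -0.09. Control replicate 1 was the highest for the T cell genes Cd3d, at 77.7 against 23.3 to 28.8 elsewhere, and Cd3g, at 150.8 against 65.3 to 74.3. Cd8a exceeded the floor in controls alone, so its direction was built in. The part of leukocyte content in the Slc40a1, Slc15a3 and Slc7a7 differences was not tested. Endothelial markers had a median of -0.02.

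The 64 genes for other cargo included organic cations, organic anions, creatine, choline, peptides and nucleotide sugars. Slc22a3, the organic cation carrier OCT3, which takes up catecholamines, had 192.0 and 175.7 in controls and 120.9 and 94.8 in obese samples. Its pairs were far apart relative to their own spread, at means of 184 ± 11.5 (SD, n = 2) and 108 ± 18.5, and the log2 difference was -0.78 ± 0.18 or 1.72-fold (limma adjusted p = 0.457). It lay between -0.60 and -0.95 without any single array and between -0.70 and -0.72 under the other scalings. The creatine carrier Slc6a8 had 388.2 and 367.7 against 471.7 and 449.9 (0.29 ± 0.12), separated upwards, and 0.01 with its second probe set. The organic anion carrier Slco2b1 had 591.1 and 666.2 against 510.4 and 571.1 (-0.22 ± 0.14, and -0.13 without control replicate 2), separated downwards. The second probe set of Slco2b1 gave -0.37, with overlap.

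Of these 64 genes 21 were separated downwards (32.8%, against 24% of all genes) and 6 upwards (9.38%, against 16.4%), with a median of -0.08. The choline carrier-like genes Slc44a1 and Slc44a2 gave -0.42 and -0.33, both separated, while Slc44a4 gave -0.11. All 3 peptide carriers of the Slc15 family were separated downwards, with Slc15a2 at -0.48 (-0.26 without obese replicate 2) and Slc15a4 at -0.23. In the Slco family of organic anion carriers 5 of 8 were separated downwards (62.5%, against 24% of all genes) and 2 upwards (25%, against 16.4%), Slco3a1 (0.43) and the prostaglandin carrier Slco2a1 (0.59). Slco3a1 was at 0.22 without obese replicate 2. Slco2a1 was at 119.4 on obese replicate 1 and at 58.7 to 65.8 on the other arrays, and its difference was 0.16 without obese replicate 1. Slc46a1, the proton-coupled folate carrier, was at 30.1 and 30.8 in controls and under the floor on both obese arrays, at least 1.46-fold lower, and Slc22a24 was under the floor on both control arrays and at least 1.20-fold higher in obese samples. Both passed the filter through 1 group alone, so their directions were built in, and with Slc28a3 they count among the 49 and 16 separated genes. The 12 genes of the Slc35 family ranged from -0.38 to 0.18.

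Within the set the distance between replicate arrays and the difference between group means had similar medians. The median distance between the 2 arrays of a pair was 0.19 on the log2 scale in controls and 0.20 in obese samples, and the median size of the difference between group means was 0.19. Over all tested genes these values were 0.17, 0.21 and 0.16. The pair distance is between single arrays, whereas each group mean averages 2 arrays and so varies less. Comparing their sizes therefore does not show whether the groups differed by more than replicate spread. In all 4 scalings the same 52 genes were separated, 37 downwards and 15 upwards. They include Slc46a1 and Slc22a24, whose directions were built in by the filter. The share of all genes separated in all 4 scalings was not computed. Under the single scalings 16.5% to 24% of all genes were separated downwards and 16.4% to 23% upwards. The sign of the difference turned under another scaling for 22 genes and without a single array for 70. The 34 Slc genes that the rule leaves out, mostly mitochondrial carriers, had 31 tested, 8 separated upwards (25.8%, against 16.4% of all genes) and 4 downwards (12.9%, against 24%), with a median of 0.05.

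The 44 genes not kept exceeded the floor on 1 array at most. They included carriers best known from kidney, liver or neurons, such as Slc12a1 and Slc12a3 (sodium chloride cotransporters of the kidney tubule), Slc10a1 (bile acid uptake in liver), Slc22a6 (renal organic anion uptake) and Slc6a2 (noradrenaline reuptake). Their highest signals on any array were 9.0, 11.5, 15.6, 9.2 and 15.7. Of 9 kidney and liver markers measured, Umod, Aqp2, Kap and Apoa2 were under the floor on all 4 arrays. The other 5, all liver genes, passed the filter, among them albumin, Alb, at 107.7 and 200.7 in controls and 213.2 and 177 in obese samples.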

How the data were processed

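RNA of 4 samples was measured on single-colour arrays, 1 array each. The authors' deposited table gives 1 intensity per probe set on a linear scale, and from the values it had been scaled, with means of 150.026 to 150.03 after trimming 2% at each end. For scanner, software and normalization nothing was given in the sources used here. After 57 control probe sets were left out, lower values were set to 20.8, the 20th percentile of the remaining signals (the floor), before the log2 step. Probe sets with at least 2 arrays above the floor (12929) entered a limma 3.58.1 fit (R 4.3.3; lmFit, and eBayes with a variance trend) of obese minus control. Its p-values are two-sided and Benjamini-Hochberg adjusted across the 12929. Errors are moderated standard errors with 5.83 degrees of freedom. An exact permutation test of 2 arrays against 2 cannot give a p under 0.333, so none was run. The number of arrays limits the precision. Where both arrays of a group lay under the floor, a bound is given, from the floor to the mean of log2 values in the brighter group.

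Symbols come from the platform's annotation, and all 206 gene identifiers were found in RefSeq's GRCr8 table with the same symbol. Full values are given for Slc4a1, for separated genes at least 2-fold apart and, in each substrate group, for the genes at both ends of the t statistic and the 2 brightest by mean log2 signal. Other members are named in clauses. From each list of partners and from the macrophage markers the largest and smallest t and the highest mean were taken. Genes named from the red cell, lymphocyte, pancreas, epithelial and kidney and liver lists were picked after their values were seen, by no such rule. Adipocyte and endothelial markers are given as a set only. Members and lists were chosen with earlier results of these data known. The replicate numbers pair nothing that the labels state. The code was tested on simulated data.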

Additional observations from a re-analysis of the deposited data

How the results depend on the processing

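The number of solute carriers passing limma was 0 under all 16 alternatives, each array left out included. Among all probe sets 0 passed as reported, 1 when the floor was the 10th percentile (7.3), 5 when it was the 40th (54.7), 3 with a pseudocount of 16, 6 with no filter on dim probe sets and 1 without the variance trend. Solute carriers separated upwards numbered 26 (16%) with median centring and 27 (16.7%) with cyclic loess, beside 23% and 20.3% of all genes. Without 1 array, where 3 arrays separate more easily by construction, they numbered 35 to 43 (21.6% to 26.5%, beside 28.3% to 33.1% of all genes). Separated downwards were then 63 to 86 (38.9% to 53.1%, beside 35.7% to 45.5% of all genes). The median difference was -0.00042 with median centring, -0.021 with quantile normalization, -0.019 with cyclic loess, 0 at the 40th percentile floor, -0.0011 with no filter and -0.13 to -0.012 without 1 array. The number separated and at least 2-fold apart was 3 to 5 without 1 array, and 3 under the 10th percentile floor. The genes changed as well. Slc7a10 was no longer among them without control replicate 1, nor Slc4a1 without obese replicate 1. The shares of all genes in this class under these settings were not computed. With the replicate number as a block, 0 solute carriers and 0 probe sets passed, and the separated counts stayed at 16 and 49. An unadjusted limma p under 0.05 was then reached by 14 of the 162 solute carriers, beside 1103 of the 12929 probe sets. The labels do not say that the numbers pair the samples, and the deviations of same-numbered arrays correlated with 0.05 over 12929 probe sets.

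Of the 26 genes with full values 18 kept their sign throughout, Slc16a6 and Slc28a3 except for 0 at the 40th percentile floor. With median centring Slc2a13 gave 0.033 and Slc39a1 0.053, and the mean over its probe sets gave 0.085 for Slc2a13. Leaving out 1 array gave ranges that crossed 0 for Slc2a13, Slc39a1, Slc20a1, Slc28a2, Slc29a2, Slc29a3, Slc48a1 and Slc50a1. In that order they were -0.24 to 0.14, -0.45 to 0.40, -0.25 to 0.0066, -0.15 to 0.26, -0.048 to 0.21, -0.58 to 0.18, -0.20 to 0.54 and -0.19 to 0.012. The plain two-sample test without moderation put 11 of the 162 solute carriers under an unadjusted p of 0.05, beside 882 of the 12929 probe sets. It passed 0 solute carriers. Signals near the floor have only a bound, and 3 genes lay under it on both arrays of a group.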

Other observations

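Several genes had more than 1 probe set, and these did not always go the same way. For 33 of the 162 genes other probe sets were tested, 43 in all, and 27 of the 43 had the sign of the probe set described above. Slc1a3, a glutamate carrier, gave -0.25 and -0.41 with 2 probe sets and 0.39 with the third, each separated. Slc44a1, a choline carrier-like gene, gave -0.42 and -0.77 with 2 and 0.20 with the third, again each separated. Slco1a4 gave -0.33 with one and 0.27 with the other. The urea carrier Slc14a2 had 5 probe sets, from -0.50 to 0.58. The positions of the probe sets within these genes were not analysed here.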
